A study of Mus musculus with 12 samples.

Results

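Transcripts of 7 genes of MHC class II antigen presentation were followed in sorted islet cells of female NOD mice, an inbred strain that develops autoimmune diabetes. The genes were taken by symbol (H2-Aa, H2-Ab1, H2-Eb1, H2-DMa, H2-DMb1, Cd74 and Ciita), and all 7 were found among the 52962 gene identifiers of the count table. Islet cells were sorted by autofluorescence into β-cells and non-β-cells at 4 and 8 weeks of age, which gave 4 groups of 3 samples. All groups share the NOD genotype, no other allele or agent is labelled, and no diabetes-resistant strain was among the samples. The study describes each sample as a pool of mice and states that cells stained for CD45, the surface protein of leukocytes, were removed in the sort.

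MHC class II molecules are pairs of an α and a β chain that display peptides from the endosomes to CD4+ T cells. Dendritic cells, B cells and macrophages carry them constitutively, and interferon-γ induces them in many other cells. The coactivator Ciita switches the genes on without binding DNA itself, through RFX, CREB and NF-Y proteins that sit on the X and Y boxes of the class II promoters. In NOD mice the displayed molecule is I-A, encoded by H2-Aa and H2-Ab1, since the strain makes no α chain for I-E.

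Promoter sequence is shown first, for the genes that had an entry, and its part in the changes reported below was not tested. The RefSeq promoter table held entries for 4 of the 7 genes, each with 250 bases before and 50 bases after a transcription start in the C57BL/6J reference (GRCm38.p6), which differs from NOD at this locus. The windows lie at chr17:34287774-34288073 on the minus strand for H2-Aa, and on the plus strand at chr17:34305617-34305916 for H2-Eb1 and chr17:34152941-34153240 for H2-DMb1. For H2-DMa 2 windows at chr17:34122582-34122881 and chr17:34125268-34125567 are both on the plus strand, and the first is printed. H2-Ab1, Cd74 and Ciita had no entry. Capitals mark matches to ATTGG (the core of the Y box) and to CTGATTGG (a longer form that contains it) on either strand, to TGACGTCA (the cyclic AMP response element), and to AACTGATGATGCT, the longest run shared by the H2-Eb1 and H2-DMb1 windows.
H2-Aa: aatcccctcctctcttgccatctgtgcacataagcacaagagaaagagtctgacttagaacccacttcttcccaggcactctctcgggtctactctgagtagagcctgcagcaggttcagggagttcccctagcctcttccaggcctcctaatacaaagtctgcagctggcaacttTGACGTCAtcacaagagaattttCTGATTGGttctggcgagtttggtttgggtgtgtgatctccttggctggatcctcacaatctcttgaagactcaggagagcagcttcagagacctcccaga
H2-Eb1: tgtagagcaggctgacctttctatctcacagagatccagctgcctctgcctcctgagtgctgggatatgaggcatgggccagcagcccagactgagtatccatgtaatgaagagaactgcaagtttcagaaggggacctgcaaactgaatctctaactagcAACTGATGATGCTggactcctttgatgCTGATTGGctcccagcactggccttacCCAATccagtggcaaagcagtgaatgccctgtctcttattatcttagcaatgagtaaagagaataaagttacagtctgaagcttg
H2-DMb1: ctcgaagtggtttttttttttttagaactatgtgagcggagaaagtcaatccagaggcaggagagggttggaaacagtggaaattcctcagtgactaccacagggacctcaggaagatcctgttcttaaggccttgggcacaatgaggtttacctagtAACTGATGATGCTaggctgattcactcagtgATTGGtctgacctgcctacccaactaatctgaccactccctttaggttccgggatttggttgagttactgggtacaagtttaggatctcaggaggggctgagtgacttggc
H2-DMa: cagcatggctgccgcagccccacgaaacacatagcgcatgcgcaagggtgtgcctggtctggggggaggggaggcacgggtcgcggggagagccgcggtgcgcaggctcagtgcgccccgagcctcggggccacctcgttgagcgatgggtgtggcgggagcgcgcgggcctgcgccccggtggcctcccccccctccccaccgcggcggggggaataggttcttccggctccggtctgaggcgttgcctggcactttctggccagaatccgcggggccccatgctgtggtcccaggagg

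The ATTGG core was present in the windows of H2-Aa, H2-Eb1 and H2-DMb1 and in the second H2-DMa window, and lay 48, 59 and 61 bases before the start in the first 3 of these. Letters this short are common, and 37.4% of 32544 promoter windows held the core on either strand. CTGATTGG was found for H2-Aa and H2-Eb1, against 4.07% of all windows, and TGACGTCA for H2-Aa, against 1.8%. The shared run AACTGATGATGCT began 89 bases before the start of H2-Eb1 and 92 before that of H2-DMb1. It was in 3 windows of all, the other being that of Slc39a10 on chromosome 1. The H2-Eb1 and H2-DMb1 windows hold it by its definition, so the count is no measure of a link to class II genes. The first H2-DMa window held none of the 4 sequences. That window also contains the annotated start of Brd2, a gene on the opposite strand, at 34122634.

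**Figure D1:**
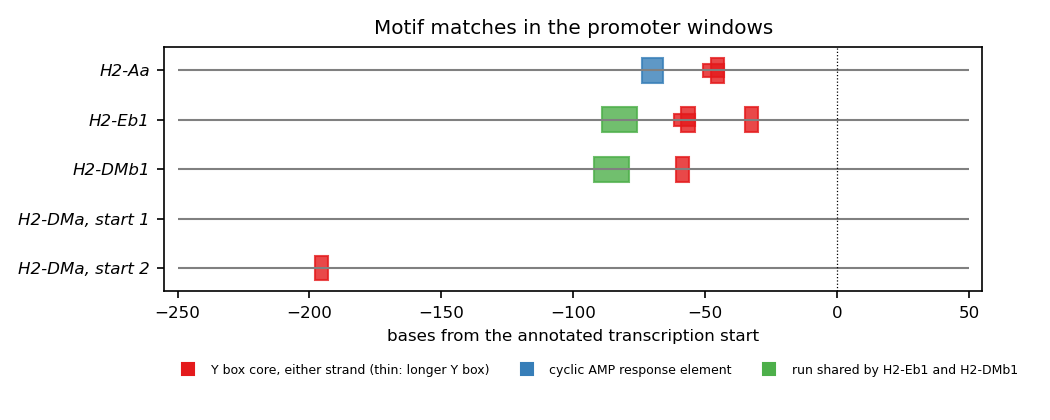
Matches to the motif letters in 5 promoter windows of 4 class II genes, plotted by bases from the annotated start, with each window as a grey line. Matches cluster between 92 and 35 bases before the start in H2-Aa, H2-Eb1 and H2-DMb1. The first H2-DMa window, which also holds the annotated start of Brd2, has none.

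The depth was 13755106 to 27040652 estimated counts per sample, so that 3 counts, the limit that a count of 0 allows, equal 0.111 to 0.218 CPM, the count relative to the library total. CPM values carry the scaling of the TMM method between samples, and values after ± are SDs over 3 samples unless named as standard errors (SE). Unless another tool is named, log2 changes with their SEs and adjusted p-values come from limma-voom, in which the 4 groups share an estimate of the spread. A gene was tested when its CPM exceeded 1 in at least 3 samples. H2-Aa, H2-Ab1, H2-Eb1, H2-DMa and Cd74 passed this filter, and H2-DMb1 and Ciita did not. H2-Aa, H2-Ab1 and H2-Eb1 passed it through their 8-week samples alone, so a rise in these 3 is partly built into their being tested.

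The chains of the I-A molecule were close to the detection limit at 4 weeks and were measured in every 8-week sample of both fractions. H2-Aa, the α chain (ENSMUSG00000036594, chromosome 17, 34282744 to 34287823, GRCm38), had 14, 1 and 2 estimated counts in β-cells at 4 weeks and 49, 73 and 95 at 8 weeks. In non-β-cells H2-Aa had 13, 0 and 7.1 counts at 4 weeks and 136, 104 and 178 at 8 weeks. The ages did not overlap in either fraction. H2-Aa rose from 0.281 ± 0.374 to 2.94 ± 0.790 CPM in β-cells (4.19 on the log2 scale, SE 1.05, adjusted p 0.0153). In non-β-cells it rose from 0.281 ± 0.255 to 7.60 ± 1.64 CPM (5.37, SE 1.04, adjusted p 0.0029). The β-cell call rested on few 4-week counts, and without β-cell replicate 2 at 4 weeks the adjusted p for H2-Aa was 0.0643. The size of the rise depended on the fit as well, at 3.42 by edgeR and from 3.35 to 5.16 over 17 alternatives in β-cells, and at 4.69 by edgeR and from 4.06 to 6.27 in the non-β fraction.

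H2-Ab1, the β chain of I-A (ENSMUSG00000073421, chromosome 17, 34257689 to 34269419), was detected in 1 of the 3 β-cell samples at 4 weeks. Its estimated counts were 10, 0 and 0 there, against 18, 48 and 51 in β-cells at 8 weeks. In non-β-cells they were 18, 1 and 15 at 4 weeks and 126, 66 and 129 at 8 weeks. Again every 8-week sample exceeded every 4-week sample of its fraction in CPM. H2-Ab1 rose by 4.69 on the log2 scale in β-cells (SE 1.43, adjusted p 0.0375). The rise in the non-β fraction was 4.00 (SE 0.81, adjusted p 0.00391). In β-cells the H2-Ab1 call was lost in 7 of 17 alternative fits, among them edgeR's quasi-likelihood test (adjusted p 0.061) and the fits without β-cell replicates 2 or 3 at either age, in which the adjusted p reached 0.126. The β-cell rise of H2-Ab1 was 3.25 by edgeR and 3.25 to 6.14 over the 17 alternatives, and the non-β rise ranged from 2.97 to 4.58. In β-cells the pooled count ratio of H2-Ab1 was 10.7 (95% counting interval 5.60 to 22.8, which covers counting error only). The NOD I-Aβ chain differs from the reference used for counting, and how many of its reads were lost on that account was not tested.

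H2-Eb1 encodes the β chain of I-E (ENSMUSG00000060586, chromosome 17, 34305867 to 34316674), which has no partner in this strain. H2-Eb1 had 6, 5 and 6 estimated counts in 4-week β-cells and 18, 33 and 60 in 8-week β-cells. In non-β-cells they were 11, 10 and 0, then 122, 62 and 88. H2-Eb1 rose in non-β-cells, from 0.303 ± 0.265 to 4.81 ± 0.410 CPM (log2 change 4.70, SE 0.92, adjusted p 0.00314, from 3.38 to 5.38 over 17 alternatives). In β-cells H2-Eb1 had 0.260 ± 0.0553 CPM at the younger age and 1.49 ± 0.817 at the older, a difference of 2.36 on the log2 scale (SE 0.85) that missed the threshold by limma-voom (adjusted p 0.0728) and passed it by edgeR's quasi-likelihood test (adjusted p 0.0441) and DESeq2 (adjusted p 0.00256). The α-chain pseudogene of I-E, H2-Ea-ps, had 0 counts in all 12 samples.

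Cd74, the invariant chain that blocks the peptide groove and escorts class II molecules to the endosomes (ENSMUSG00000024610, chromosome 18, 60803848 to 60812652), was the member with the most counts at 8 weeks. It had 15, 29 and 22 estimated counts in β-cells at 4 weeks and 183, 196 and 205 at 8 weeks. In non-β-cells it had 36, 24 and 28 at 4 weeks and 1264, 599 and 1105 at 8 weeks. The replicates of each group lay close together, and the ages were far apart in both fractions. Cd74 rose from 0.974 ± 0.195 to 8.02 ± 0.566 CPM in β-cells (8.02-fold, log2 change 3.00, SE 0.37, adjusted p 0.000159). In non-β-cells it rose from 1.31 ± 0.118 to 52.1 ± 6.43 CPM (39.1-fold, log2 change 5.29, SE 0.32, adjusted p 3.90e-07). Both calls held in each of 17 alternative fits.

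**Figure D2:**
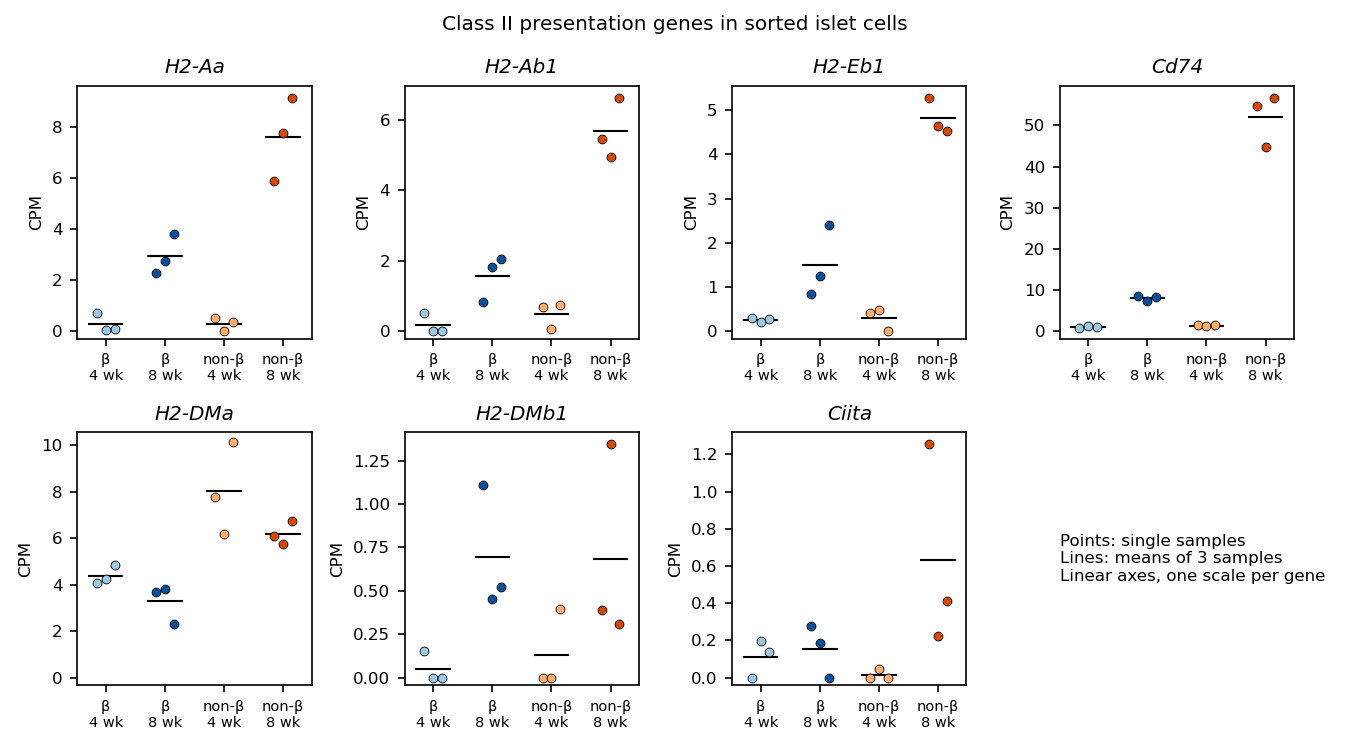
TMM-scaled CPM of the 7 genes in each of the 12 samples, with points for samples and lines for the means of 3, on linear axes scaled gene by gene. H2-Aa, H2-Ab1, H2-Eb1 and Cd74 are higher in all 8-week samples than in all 4-week samples of the same fraction, and H2-DMa is not. The share of all genes so separated is not given.

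The chains of H2-DM, the endosomal editor that exchanges the invariant chain's remnant for peptide, did not follow Cd74 as a pair. H2-DMa (ENSMUSG00000037649, chromosome 17, 34119541 to 34139101) had 80, 107 and 106 estimated counts in β-cells at 4 weeks and 80, 101 and 58 at 8 weeks. In non-β-cells it had 203, 126 and 206, then 141, 77 and 131. H2-DMa stood at 4.39 ± 0.416 CPM in 4-week and 3.28 ± 0.825 CPM in 8-week β-cells. The non-β levels were 8.03 ± 2.01 and 6.20 ± 0.496 CPM. The log2 changes of H2-DMa, -0.46 in β-cells (95% interval -1.07 to 0.16, adjusted p 0.302, ages not overlapping) and -0.33 in the non-β fraction (-0.83 to 0.16, adjusted p 0.381, ages overlapping), did not pass the threshold, and their intervals leave out a rise of the size seen for Cd74. With ages permuted within fraction over both fractions, the mean log2 difference of H2-DMa was -0.39 (exact permutation test, two-sided p 0.015, not adjusted). The H2-DMa interval overlaps that of Brd2 on the opposite strand, with 360 of its 3448 annotated exon bases shared. Brd2 was counted at 312 to 610 CPM, with log2 changes of -0.07 in β-cells (adjusted p 0.657) and 0.27 in the non-β fraction (adjusted p 0.0605), and its part in the H2-DMa counts was not tested.

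H2-DMb1 (ENSMUSG00000079547, chromosome 17, 34153072 to 34160230) encodes the β chain of H2-DM and was too low for the main test. β-cells gave 3, 0 and 0 estimated counts of H2-DMb1 at 4 weeks and 24.4, 12.3 and 13 at 8 weeks. In non-β-cells they were 0, 0 and 8, then 8.6, 18.5 and 5.9. The ages were separate in β-cells and overlapped in non-β-cells. H2-DMb1 has a neighbouring copy, H2-DMb2, whose transcript was 93.9% identical over 1255 aligned bases, so estimated counts can be divided between them. H2-DMb2 had 0, 0 and 2 counts in β-cells at 4 weeks and 12.2, 7.3 and 0 at 8 weeks, and in non-β-cells 0 in every 4-week sample and 31.2, 5.5 and 37.6 at 8 weeks. Summed, the copies had 5 counts at 4 weeks and 68 at 8 weeks over the 3 β-cell samples, a ratio of 12.4 after scaling (95% counting interval 5.06 to 39.4). In non-β-cells they had 8 and 108, a ratio of 16.1 (7.90 to 38.3). Tested as a single gene, an alternative added after the data had been seen, the sum changed by 5.12 on the log2 scale in non-β-cells (adjusted p 0.0106) and by 3.60 in β-cells (adjusted p 0.0525). Counting intervals here cover counting error only.

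Ciita, the coactivator (ENSMUSG00000022504, chromosome 16, 10480059 to 10528418), was barely detected. β-cells gave 0, 5 and 3 estimated counts of Ciita at 4 weeks and 6, 5 and 0 at 8 weeks, which overlap. In non-β-cells they were 0, 1 and 0 at 4 weeks and 29, 3 and 8 at 8 weeks, so that every 8-week sample was above every 4-week sample. The scaled ratio of 40 to 1 counts in non-β-cells was 47.8, with a 95% counting interval of 8.10 to 1930. That of 11 to 8 counts in β-cells was 1.25 (0.460 to 3.59). Both intervals cover counting error only, not the spread between pools, and 29 of the 40 counts came from 1 sample. Over both fractions the mean log2 difference was 1.36 (exact permutation test, two-sided p 0.055). The Ciita interval overlaps Dexi on the opposite strand, with 329 of 9535 exon bases shared.

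For single genes the exact permutation test of 3 against 3 samples cannot go below 0.1, and with ages permuted within both fractions together it cannot go below 0.005. H2-Aa, H2-Ab1, H2-Eb1 and Cd74 each reached p 0.005 over both fractions, with mean log2 differences of 4.10, 3.43, 3.04 and 4.08 on a log2 CPM scale with a prior count of 2. H2-DMb1 had 2.28 (p 0.015). The share of all genes that would reach p 0.005 is not given here. By limma-voom over all 15598 tested genes, 3 of the 5 tested members (H2-Aa, H2-Ab1 and Cd74) were called higher at 8 weeks in β-cells, where 8.59% of all genes were. In non-β-cells 4 of 5 were, with H2-Eb1 added, against 11.6% of all genes. None was called lower by limma-voom at either an adjusted or an unadjusted p under 0.05, nor by edgeR or DESeq2 at an adjusted p under 0.05, where 9.35% of all genes fell in β-cells and 4.8% in the non-β fraction. The median log2 change was 3.00 over the 5 members against 0.02 over all genes in β-cells, and 4.70 against 0.01 in non-β-cells, with 3 of the 5 tested through their 8-week levels.

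**Figure D3:**
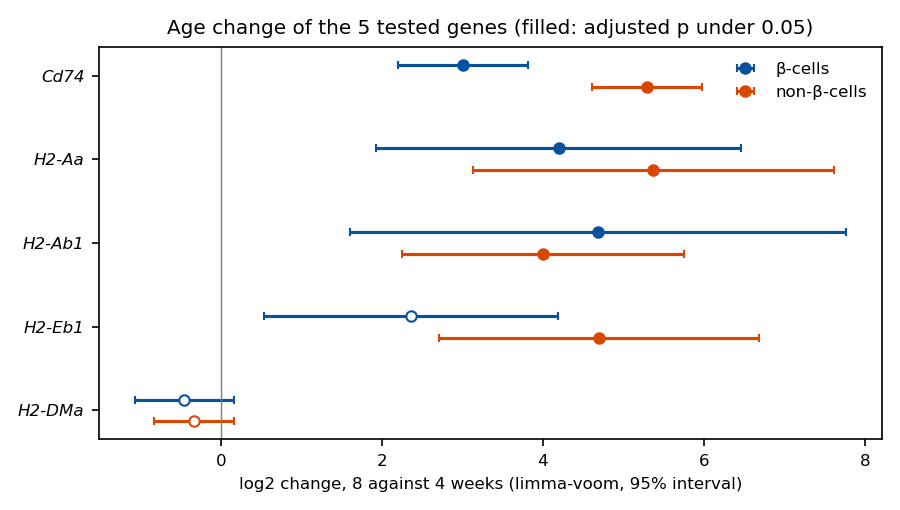
Log2 change from 4 to 8 weeks of the 5 tested genes by limma-voom, with 95% intervals, in β-cells (blue) and non-β-cells (orange); filled points have an adjusted p under 0.05. The intervals of Cd74, 2.20 to 3.81 in β-cells and 4.61 to 5.97 in non-β-cells, are the narrowest among the 4 genes that lie to the right, and H2-DMa spans 0 in both fractions.

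Per kilobase of the longest coding transcript, the order of the members changed with age. In β-cells at 4 weeks H2-DMa led with 2.19 ± 0.208 CPM per kilobase, above Cd74 at 0.691 ± 0.139. H2-Aa, H2-Eb1 and H2-Ab1, at 0.249 ± 0.332, 0.156 ± 0.0331 and 0.140 ± 0.242, overlapped each other, and H2-Aa also overlapped Cd74. At 8 weeks in β-cells Cd74 led with 5.69 ± 0.401, followed by H2-Aa at 2.61 ± 0.700, which did not overlap H2-DMa at 1.64 ± 0.412. H2-Ab1 at 1.29 ± 0.531 overlapped both H2-DMa and H2-Eb1, the latter at 0.895 ± 0.489.

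In non-β-cells the change of order was sharper. At 4 weeks H2-DMa stood at 4.00 ± 1.00 CPM per kilobase and Cd74 at 0.930 ± 0.0837. At 8 weeks Cd74 stood at 36.9 ± 4.56, H2-Aa at 6.74 ± 1.45 and H2-Ab1 at 4.68 ± 0.717, and the ranges of H2-Aa and H2-Ab1 overlapped. H2-DMa at 3.09 ± 0.247 and H2-Eb1 at 2.88 ± 0.246 overlapped each other and lay below H2-Ab1. H2-DMb1 at 0.485 ± 0.411 and Ciita at 0.105 ± 0.0915 were last.

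Between the fractions, limma-voom called 1 member at 4 weeks and all tested members at 8 weeks, and the 8-week count depended on the test. At 4 weeks the β against non-β log2 differences were -0.16 for H2-Aa (95% interval -3.26 to 2.95), -2.60 for H2-Ab1 (-6.00 to 0.81), 0.55 for H2-Eb1 (-1.99 to 3.08) and -0.42 for Cd74 (-1.43 to 0.59), none past the threshold, although the 3 Cd74 values of each fraction did not overlap. These intervals are wide, and differences of several-fold were not detectable for the H2 chains. H2-DMa was lower in β-cells (log2 difference -0.84, SE 0.24, adjusted p 0.0115), 1 of 5 tested members against 23.7% of all genes called lower. Without non-β replicate 2 at 4 weeks H2-Ab1 was also called lower, at -3.66 (adjusted p 0.0364).

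At 8 weeks limma-voom called all 5 tested members lower in the β fraction, where 25.6% of all genes were called lower. Cd74 differed by -2.71 on the log2 scale (SE 0.14, adjusted p 1.13e-08), and its β-cell level was 15.4% of its non-β level. H2-Aa differed by -1.34 (adjusted p 0.00615), H2-Ab1 by -1.91 (adjusted p 0.00363), H2-Eb1 by -1.79 (adjusted p 0.00386) and H2-DMa by -0.96 (adjusted p 0.011). In each the groups did not overlap, and the share of all genes without overlap is not given here. EdgeR's quasi-likelihood test called 2 of the 5 (Cd74 and H2-DMa) and DESeq2 3 (with H2-Eb1), so the calls of H2-Aa, H2-Ab1 and H2-Eb1 depended on the test. Their log2 differences by edgeR were -1.37, -1.85 and -1.68. The H2-DMa call was lost without β-cell replicate 3 at 8 weeks (-0.73, adjusted p 0.0559).

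Whether the age change itself differed between the fractions was tested as an interaction, the β-cell change less the non-β change. Cd74 rose less in β-cells, with an interaction of -2.29 (SE 0.49, adjusted p 0.0169), where 3.33% of all genes had a smaller rise or larger fall in β-cells. This call was lost without β-cell replicate 2 at 4 weeks (adjusted p 0.0728) and without both 4-week samples numbered 3 (adjusted p 0.0517), at interactions of -2.16 and -2.31. The interactions of H2-Aa (-1.18, 95% interval -4.37 to 2.01), H2-Ab1 (0.69, -2.86 to 4.23), H2-Eb1 (-2.34, -5.04 to 0.36) and H2-DMa (-0.12, -0.91 to 0.67) did not pass the threshold. For H2-Aa, H2-Ab1 and H2-Eb1 an unequal rise of the size seen for Cd74 lies within these intervals, and for H2-DMa it does not.

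Genes that mark other cells were set beside these levels because class II is abundant in leukocytes and the fractions were sorted from islets. In bulk samples, fewer cells of a type and less RNA per cell cannot be told apart. Of 35 markers of leukocytes in general, B cells, macrophages, dendritic cells and T cells, 31 stayed under the filter, and the highest single count among the 31 was 30, for Xcr1. Cd48 and Cd209a had 0 counts in all 12 samples. Ptprc, which encodes CD45, had 0, 1 and 0 counts in 4-week β-cells and 0 in all 3 samples of 8-week β-cells. In the non-β fraction Ptprc had 15, 0 and 16 counts at 4 weeks and 3, 0 and 0 at 8 weeks. Other general leukocyte markers were higher at 8 weeks, such as Rac2 in β-cells, with 1.2, 5.3 and 3.2 counts at 4 weeks and 14.7, 11.4 and 21.7 at 8 weeks. Cd53 had 0 counts in each 4-week non-β sample and 6, 8 and 9 in those of 8 weeks. The 7 general markers, Ptprc among them, summed to 0.102 to 0.476 CPM in 4-week and 0.528 to 1.89 CPM in 8-week β-cells, and to 0.587 to 1.28 and 1.56 to 1.95 CPM in the non-β fraction, so the ages did not overlap in either.

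The 31 markers summed to 0.917 to 2.04 CPM in β-cells at 4 weeks and 1.81 to 5.22 at 8 weeks, and to 3.18 to 3.99 and 4.86 to 5.96 CPM in non-β-cells. At 8 weeks Cd74 alone exceeded that sum in every sample, at 7.39 to 8.46 CPM in β-cells and 44.7 to 56.8 in non-β-cells. The 31 were those under the filter, so a sum of a few CPM followed from their choice. All 10 macrophage markers, Cd68 and C1qa included, summed to 70.4 to 78.7 CPM in 8-week β-cells and 35.7 to 57.1 in non-β-cells. The sum of the 31 was also higher in each 8-week non-β sample than in any 4-week non-β sample. The part of leukocytes in the class II levels was not tested. The remaining 4 markers were tested by age. Cd68, a lysosomal protein abundant in macrophages, rose in β-cells by 0.51 (adjusted p 0.0135) and by 0.81 in the non-β fraction (adjusted p 0.0106), with 64.0 to 74.1 CPM in 8-week β-cells against 12.6 to 18.9 in the 8-week non-β samples. C1qa, Cd79a and Zbtb46 did not pass the threshold in either fraction, and C1qb and C1qc, partners of C1qa in the complement C1q complex, had at most 2 counts in any sample.

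Some genes of class II presentation outside the list were almost unread, and others were not. Among the latter, H2-DMb2 had 31.2, 5.5 and 37.6 counts in the 8-week non-β samples. Ifi30, an endosomal enzyme taken up below, stood at 30.8 to 140 CPM over the 12 samples. H2-Oa and H2-Ob, which encode the H2-DM inhibitor H2-O of B cells and dendritic cells, had 0 counts in 11 of 12 samples, and 7 and 3 counts in non-β replicate 3 at 8 weeks. Ctss, the cathepsin that trims the invariant chain in those cells, had at most 6 counts in any sample. March1, the ligase that turns over surface class II, had at most 8.

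Markers of endothelial, mesenchymal, duct and acinar cells moved with age in non-β-cells beside the class II genes. All 6 tested endothelial markers of 7 rose there (median log2 change 3.19), where 11.6% of all genes were called higher. The summed endothelial list went from 40.4 to 76.5 CPM at 4 weeks to 289 to 791 at 8 weeks. All 5 mesenchymal markers rose too (median 2.63), from 74.5 to 237 CPM summed to 503 to 804. Within the 8-week non-β group the endothelial sum varied 2.73-fold, highest in replicate 1 and lowest in replicate 2. Cd74 varied 1.27-fold there, highest in replicate 3 and lowest in replicate 2. H2-Ab1 and H2-DMa had the same order as Cd74, whereas H2-Aa was lowest in replicate 1 and H2-Eb1 was highest in replicate 1 and lowest in replicate 3. The sum of the 31 leukocyte markers under the filter varied 1.23-fold, highest in replicate 3 and lowest in replicate 2. The mesenchymal sum varied 1.6-fold, highest in replicate 3 and lowest in replicate 1. Of 6 duct markers 4 rose in non-β-cells (Krt19, Sox9, Muc1 and Cftr, median 1.71 over the 6), with summed levels of 611 to 782 CPM at 4 weeks and 791 to 873 at 8 weeks. Of 5 acinar markers 2 rose (Cpa1 and Cela1, median 4.62 over the 5), and their sum went from between 32.7 and 62.9 CPM to between 120 and 381. The part of these 4 cell types in the non-β class II rise was not tested.

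In β-cells limma-voom called 0 of the 6 tested endothelial markers (1 at an unadjusted p under 0.05). It called 0 of the 5 mesenchymal markers (2 at an unadjusted p under 0.05). The values of these lists by other tools are not given here. The endothelial sum was 5.83 to 14.6 CPM at 4 weeks and 11.5 to 15.7 at 8 weeks, and the mesenchymal sum 2.58 to 11.4 and 18.2 to 40.2, which do not overlap. Their part in the β-cell class II levels was not tested. All 5 acinar markers rose in β-cells, from 42.1 to 101 CPM summed to 213 to 423, and the part of acinar cells was not tested. Of 6 duct markers 1 rose in β-cells (Muc1) and 1 fell (Epcam), and 5 of 7 markers of other endocrine cells fell. Of all genes 8.59% were called higher and 9.35% lower by age in β-cells. The β-cell level as a share of the non-β level at 8 weeks was 15.4% for Cd74, 27.6% for H2-Ab1, 31.1% for H2-Eb1 and 38.7% for H2-Aa. The same share varied widely between markers of other cells. It was 1.62% for Gcg, the glucagon gene (6.36% at 4 weeks), 2.74% for the endothelial sum (17% at 4 weeks) and 4.11% for the mesenchymal sum (4.72% at 4 weeks). Single markers chosen after their values were seen were higher, at 8.34% for Sst, 11.4% for Muc1 and 19% for Esam. The duct and acinar sums were higher in β-cells than in the other fraction, at 123% and 136%. Most of the duct sum was Krt7, at 715 to 784 CPM in 8-week β-cells, the 1 duct marker called higher there. The other 5 duct markers were called lower in β-cells at 8 weeks by limma-voom, against 25.6% of all genes. Of the 5 acinar markers 0 were called between the fractions at 8 weeks. What carry-over between the fractions adds to the β-cell class II levels was not tested. The untested leukocyte markers stood at 63.6%, at sums of a few CPM in both fractions.

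**Figure D4:**
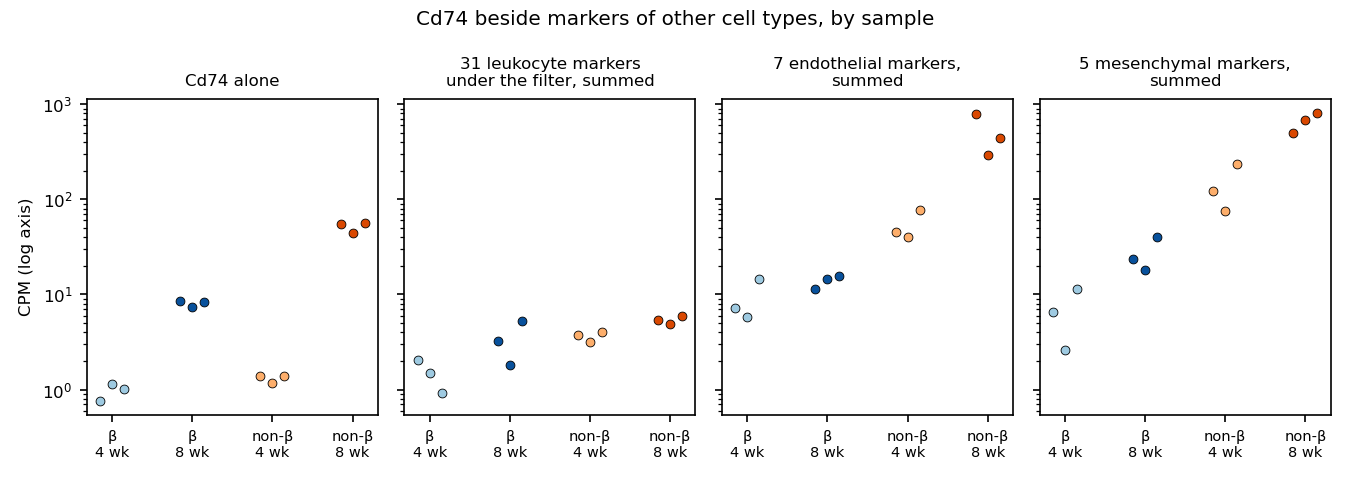
CPM on a log axis, in each of the 12 samples, of Cd74 and of the summed markers of leukocytes (the 31 under the filter), endothelial cells and mesenchymal cells. The leukocyte sum is low by choice, since the markers over the filter are left out. In β-cells Cd74 goes from between 0.763 and 1.15 to between 7.39 and 8.46, the endothelial sum lies between 5.83 and 15.7 at both ages, the mesenchymal sum goes from between 2.58 and 11.4 to between 18.2 and 40.2, and the leukocyte sum from between 0.917 and 2.04 to between 1.81 and 5.22.

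Counts over the following lists stand beside the shares of all genes called, which were 8.59% higher and 9.35% lower in β-cells, and 11.6% higher and 4.8% lower in the non-β fraction. The DNA-bound partners of Ciita come first. The RFX subunits, NF-Y subunits and Creb1 make a list of 7, all tested, of which 1 was higher and 1 lower in β-cells and 1 was higher in non-β-cells. Rfx5, the DNA-binding RFX subunit, rose in non-β-cells from 38.1 ± 9.27 to 64.7 ± 10.1 CPM (0.79 on the log2 scale, adjusted p 0.00845) and in β-cells stood at 30.9 ± 5.42 and 38.6 ± 3.26 CPM (0.33, adjusted p 0.25). Rfxank, the ankyrin-repeat subunit, rose in β-cells by 0.52 (adjusted p 0.0481), and Nfyc fell there by 0.50 (adjusted p 0.0183). The median log2 change over the 7 was 0.13 in β-cells and 0.07 in the non-β fraction. Limma-voom called 0 interactions (1 at an unadjusted p under 0.05, for Nfyc). Interactions of this list by other tools are not given here.

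Interferon-γ signalling upstream of Ciita was counted on a list of 7 genes, all tested. In β-cells 1 was higher (Irf1) and 1 lower (Usf1), with 8.59% and 9.35% of all genes so called, and in non-β-cells 4 were higher (Ifngr1, Ifngr2, Jak1 and Irf1), with 11.6% of all genes. Irf1, a transcription factor that acts on the interferon-responsive Ciita promoter, rose from 40.1 ± 0.502 to 72.2 ± 2.98 CPM in β-cells. The non-β levels of Irf1 were 74.5 ± 8.99 and 441 ± 17.9 CPM. The receptor chains Ifngr1 and Ifngr2 rose in non-β-cells, by 0.54 and 0.52. In β-cells Ifngr1 differed by -0.27 (adjusted p 0.124) and Ifngr2 by -0.22 (adjusted p 0.181), short of the threshold. Their interactions, -0.80 (adjusted p 0.0123) and -0.73 (adjusted p 0.0149), passed the threshold, as did that of Irf1 at -1.73 (adjusted p 2.99e-05).

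The endosomal enzymes moved in both directions. Of 7 listed, 6 were tested, with 1 higher and 1 lower in β-cells and 1 higher and 2 lower in non-β-cells, where 4.8% of all genes were lower. Ifi30, the thiol reductase that unfolds antigens for class II loading, fell in both fractions. It went from 113 ± 23.4 to 71.3 ± 4.99 CPM in β-cells (adjusted p 0.00622), and the non-β levels were 80.7 ± 5.17 and 35.6 ± 4.37 CPM (adjusted p 0.00013). Lgmn, an asparaginyl endopeptidase, rose in β-cells from 120 ± 20.9 to 225 ± 10.5 CPM (0.92 on the log2 scale, adjusted p 0.00146) and had a log2 difference of -0.33 in non-β-cells (adjusted p 0.18), with an interaction of 1.25 (adjusted p 0.00499). Ctsh, cathepsin H, rose in non-β-cells by 1.84 (adjusted p 0.000159) and had a log2 difference of -0.24 in β-cells (adjusted p 0.672), with an interaction of -2.07 (adjusted p 0.0109).

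Of 6 genes for signals to T cells, 3 were high enough to be tested. Cd80, Cd86 and Pdcd1lg2 were not, with at most 10, 5 and 0 counts in any sample. Cd40, a receptor of the tumour necrosis factor family that T cells engage, rose in β-cells from 11.8 ± 2.75 to 21.3 ± 1.76 CPM (log2 change 0.88, adjusted p 0.00772). In non-β-cells Cd40 rose from 1.98 ± 1.26 to 11.5 ± 1.62 CPM (2.73, adjusted p 0.000413), with an interaction of -1.85 (adjusted p 0.0313). Cd274, the PD-L1 gene, rose in non-β-cells by 0.65 (adjusted p 0.00314), and its β-cell difference was -0.02 (adjusted p 0.924). Of 7 class I genes set beside the class II members, 6 rose in β-cells (median log2 change 0.62 over the 7) and 7 in non-β-cells (median 0.97). Nlrc5, the class I counterpart of Ciita, rose from 2.85 ± 0.568 to 10.3 ± 1.03 CPM in β-cells (1.86, adjusted p 0.00177), the fraction in which Ciita counts of the ages overlapped.

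**Figure D5:**
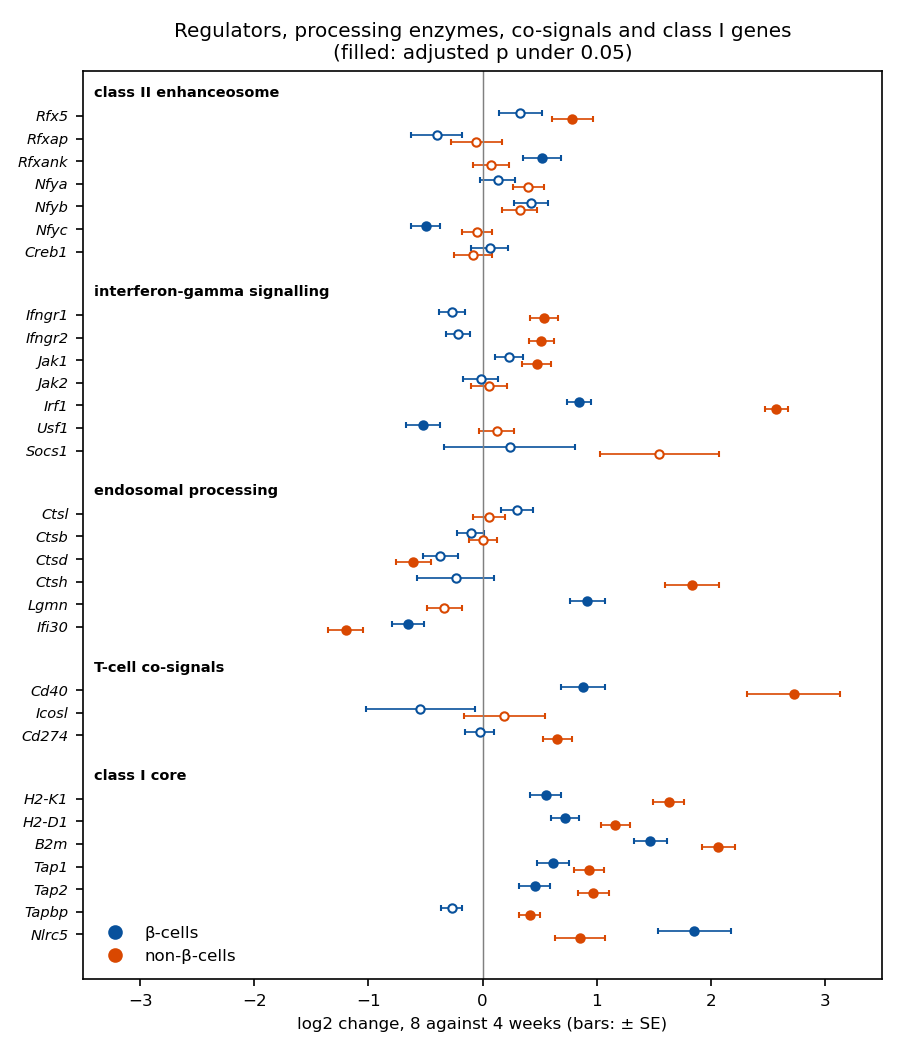
Log2 change from 4 to 8 weeks, with SE bars, of the tested genes in 5 lists around class II presentation, in β-cells (blue) and non-β-cells (orange); filled points have an adjusted p under 0.05. Irf1 and Cd40 lie farthest to the right in non-β-cells, at 2.57 and 2.73, and Ifi30 lies left of 0 in both fractions.

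The tested genes whose log2 CPM was most alike to that of Cd74 over the 12 samples, members aside, were Birc3, Elf3, Zc3h12a, Csf1 and B2m, with Pearson r of 0.983, 0.979, 0.978, 0.976 and 0.976. The value for H2-Aa was 0.899, for H2-Eb1 0.908 and for H2-Ab1 0.871, and that for H2-DMa was -0.03. For Ciita and H2-DMb1, both under the filter, the values were 0.723 and 0.705. The points share libraries and fall into 4 groups, and these values are a description. Birc3, a ubiquitin ligase of tumour necrosis factor signalling, stood at 17.5 to 20.3 CPM in β-cells at 4 weeks and 41.7 to 49.4 at 8 weeks. In non-β-cells it stood at 14.6 to 18.7 and 86.8 to 108 CPM. As for Cd74, its difference between the fractions at 4 weeks missed the threshold (0.23, adjusted p 0.228) and its interaction passed it (-1.36, adjusted p 0.00112). Zc3h12a, a nuclease that degrades inflammatory mRNAs, and Csf1, the macrophage growth factor, rose in both fractions, by 2.06 and 0.94 in β-cells and by 2.57 and 2.00 in the non-β fraction.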

How the data were processed

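RNA was sequenced from 12 samples of sorted NOD islet cells. Per the study's methods and the labels, the authors cleaned the reads with fastp, quantified Ensembl transcripts (GRCm38) with kallisto and summed them to genes with tximport, and deposited estimated counts per gene, not scaled or filtered. The versions of these 3 tools are not given in the sources used here. From 14% to 19.3% of a sample's values were not whole. The reads were stranded, but the strand setting of the counting is not given in the sources used here.

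Gene identifiers were matched to symbols in GENCODE M21 (51916 of 52962), which also gave coordinates, counted from 1, and exons. Estimated counts were rounded to whole numbers for the tests, and CPM values were computed from the rounded counts. Following the study's methods, genes with a CPM above 1 in at least 3 samples were kept, scaled by TMM (edgeR 4.0.16) and put through limma-voom (limma 3.58.1, under R 4.3.3), two-sided, with Benjamini-Hochberg adjustment over all 15598 genes and a threshold of 0.05. No covariate was used beside the 4 group means. The 5 comparisons were the ages within each fraction, the fractions at each age and their interaction. P-values measure the spread between pools. Replicates of a group all differed by more than counting noise (chi-square per degree of freedom 7.79 to 88.5).

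The members, gene lists, tests and alternatives were chosen with earlier results of these data known. All members were named, genes of the lists could be, and the 5 genes most alike to Cd74 were taken by Pearson r. Alternatives tried were DESeq2 1.42.0, its size factors alone, the quasi-likelihood test of edgeR, total-count scaling, no filter, at least 10 counts in at least 6 samples, sample quality weights, the compared groups alone, a replicate block, and omission of samples. The test was checked on simulated counts. Of the genes listed beside the members, 2 are not reported here and were left out of the list counts.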

Additional observations from a re-analysis of the deposited data

Results flagged for a closer look

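The age change of Cd74 differed between the fractions by a test of the difference itself, with an interaction of -2.29 on the log2 scale (limma-voom, adjusted p 0.0169). Its levels were 0.974 and 8.02 CPM in β-cells and 1.31 and 52.1 CPM in non-β-cells at 4 and 8 weeks. All 3 non-β samples at 8 weeks were above all 3 β-cell samples of that age. No other member passed this test, and groups of 3 samples were not searched for outlying samples.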

How the results depend on the processing

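Of 450 values recomputed for single members under the alternatives, 430 kept their direction, where called, and their side of the threshold, 16 lost it, 4 gained it and 0 called values changed sign. At 8 weeks the count of members that differed between fractions was 5 in the reported model, 2 by edgeR's quasi-likelihood test and 3 by DESeq2, and the cause was not tested. Without both 4-week samples numbered 3, the interaction was called for 0 members by limma-voom, with 1 at an unadjusted p under 0.05, and no other tool was run on those 10 samples. Leaving out single replicates gave 1 to 3 members in β-cells by age (1 without β-cell replicate 2 at 4 weeks), 4 in non-β-cells by age, 1 to 2 between fractions at 4 weeks (2 without non-β replicate 2 at 4 weeks), 4 to 5 at 8 weeks and 0 to 1 for the interaction (0 without β-cell replicate 2 at 4 weeks). Without a filter on low counts H2-DMb1 was called in β-cells (3.78, adjusted p 0.0381) and Ciita in non-β-cells (4.10, adjusted p 0.0107).

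Equal replicate numbers were not taken as pairs. The count columns number both fractions 1 to 3 at each age, but the labels do not say that equal numbers came from the same pools. After subtraction of group means, samples with the same number correlated across genes at -0.00634 to 0.306, the highest being replicate 3 of the 2 fractions at 4 weeks. In no pair of groups did all 3 exceed 0.1, and in none did every sample correlate best with its own number. With the replicate number as a block, 2 members were called by age in β-cells (H2-Ab1 was lost, adjusted p 0.0633), 4 in non-β-cells, 1 between fractions at 4 weeks, 5 at 8 weeks and 1 for the interaction, and over all genes the interaction count went from 800 to 2080. At 4 weeks the members' estimated counts of 0 to 36, H2-DMa aside, limit what can be said of their levels there.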
